A study of Mus musculus with 6 samples.

Results

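Tmem176a and Tmem176b are neighbouring genes on mouse chromosome 6 that encode related membrane proteins. The pair was picked for its near on/off pattern, high in macrophages derived from bone marrow cells called TpMos and close to background in macrophages derived from mature Ly6Chi monocytes, so its difference between the groups is described here and carries no test. Both are among the 55487 genes of the deposited count table, in which they were found by their Ensembl identifiers, ENSMUSG00000023367.14 for Tmem176a and ENSMUSG00000029810.15 for Tmem176b. Of the 13140 genes with enough counts to be tested, they make up 2, and both passed that filter through the TpMo-derived libraries alone.

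The study measured RNA in 6 libraries of mouse macrophages, 3 from each starting population. Both kinds of cell were sorted from bone marrow and kept in culture with CSF-1, on which macrophages depend to grow and survive, for 7 days, and the labels describe no further treatment. The amount of CSF-1 given to each sample, the strain and the age of the mice are not given in the sources used here. Nothing in the labels says that the 3 libraries of a group came from separate mice or cultures, so every p-value below measures only the spread between these libraries, which may be technical.

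TMEM176A and TMEM176B are multi-spanning proteins that resemble the CD20-like MS4A family and have been described as cation channels of endosomal and phagosomal membranes. They are best known from immature dendritic cells, where their level falls on maturation, and from some innate and T lymphocytes. In mouse myeloid cells Tmem176b has been reported to restrain the NLRP3 inflammasome, the complex that activates caspase-1, and to take part in antigen presentation on MHC class II.

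The genes lie head to head. On the GRCm38 build, Tmem176a runs on the plus strand from 48840919 to 48847071 on chromosome 6, and Tmem176b on the minus strand from 48833818 to 48841496, so that the outermost 578 bases of the 2 spans overlap. GENCODE lists 7 transcripts of Tmem176a, 5 of them coding, and 12 of Tmem176b, 11 of them coding. The best supported coding transcripts do not overlap: their 5′ ends are 138 bases apart, at 48841512 for Tmem176a and at 48841374 for Tmem176b. The start sites that RefSeq places farthest upstream are 109 bases apart, so a single window of 300 bases covers both. This window is shown because it is the stretch of DNA that the members share at their starts. It is the RefSeq promoter window of Tmem176a on GRCm38.p6, chr6:48841233-48841532, plus strand. It runs from 250 bases before the start to 50 after it. The letters AGGAAGT, an extended form of the ETS binding motif, are in capitals. The shorter ETS core, GGAA, also occurs elsewhere in the window and is left in lower case there.

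Tmem176a promoter: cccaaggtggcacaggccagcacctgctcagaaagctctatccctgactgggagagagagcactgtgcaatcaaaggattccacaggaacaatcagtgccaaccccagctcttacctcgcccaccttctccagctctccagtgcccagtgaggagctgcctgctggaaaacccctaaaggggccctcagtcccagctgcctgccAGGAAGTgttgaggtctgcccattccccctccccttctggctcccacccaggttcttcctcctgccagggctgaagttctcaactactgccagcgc

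The AGGAAGT match lies between the facing start sites, at bases 48841437 to 48841443. It is 46 bases before the RefSeq start of Tmem176a and 69 before that of Tmem176b. These letters were found in 9.35% of the 32851 RefSeq promoter windows of this length, searched on both strands. A match is only a match of letters, and other forms of the ETS motif were not searched. ETS proteins include PU.1, the factor that directs macrophage development. RefSeq has 5 start sites for the pair, 2 for Tmem176a and 3 for Tmem176b. None of their windows holds TATAAA, the TATA box, which 13.6% of all windows hold, or the interferon-stimulated response element, searched as 2 copies of GAAA with any 2 bases between them, which 3.44% hold. They also lack CCAAT (37.4% of all windows), GGGCGG (35.7%), AGGTCA (16.3%), TGANTCA (7.81%) and CACGTG (7.15%). The window printed above has a GC content of 59.7% and 2 CG dinucleotides, where the median of all windows is 52.7% and 7.

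Both genes were transcribed at moderate levels in every TpMo-derived library and at most at trace levels in the Ly6Chi-derived ones. Tmem176a had 873, 281 and 616 reads in TpMo-derived replicates 1, 2 and 3, which is 26.8, 10.4 and 26.7 CPM, counts scaled to the size of the library. In Ly6Chi-derived replicates 1, 2 and 3 it had 0, 4 and 15 reads, which is 0, 0.146 and 0.466 CPM. The groups did not overlap, as for 30.5% of all genes tested, and the lowest TpMo-derived library was 22.4-fold above the highest Ly6Chi-derived one. The means were 21.3 ± 9.43 CPM and 0.204 ± 0.239 CPM (SD, n = 3), a ratio of 104.

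Tmem176b had 1224, 777 and 1325 reads in the TpMo-derived replicates, which is 37.6, 28.9 and 57.5 CPM. It had 8, 12 and 31 reads in the Ly6Chi-derived replicates, which is 0.291, 0.439 and 0.964 CPM. These groups did not overlap either, with 29.9-fold between the lowest TpMo-derived and the highest Ly6Chi-derived library. The means were 41.3 ± 14.7 CPM and 0.565 ± 0.354 CPM (SD, n = 3), a ratio of 73.2. Unlike Tmem176a, Tmem176b thus had reads in all 6 libraries.

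**Figure D1:**
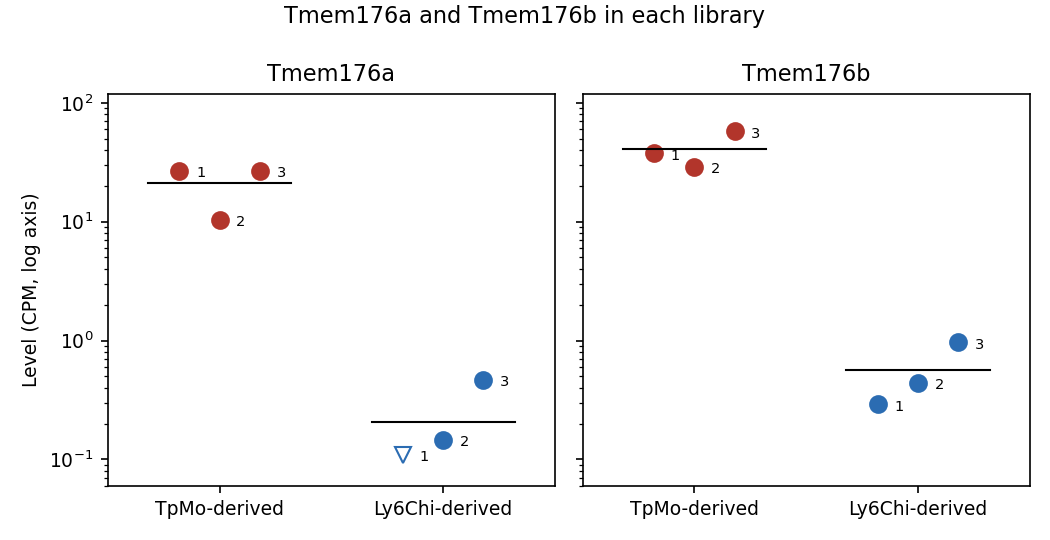
Level of Tmem176a and of Tmem176b in each library, in CPM on a log axis, with points numbered by replicate, a line at each group mean and an open triangle at the floor of 3 counts for the library with 0 reads. For both genes all 3 TpMo-derived points lie above all 3 Ly6Chi-derived points, and Ly6Chi-derived replicate 3 is the highest of its group.

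The fitted log2 fold change, TpMo-derived over Ly6Chi-derived, was 6.61 for Tmem176a and 6.15 for Tmem176b, ranks 15 and 17 of the 13140 genes tested. Across all genes tested the median log2 fold change was 0.01. The 2 values rest on few reads in the lower group, 19 for Tmem176a and 51 for Tmem176b over its 3 libraries. Of these, 79.0% and 60.8% came from Ly6Chi-derived replicate 3. Without that library the log2 fold change was 8.10 for Tmem176a and 6.80 for Tmem176b, the only library whose removal moved either fold by more than 1.5 times. For Tmem176a the value was 7.37 with limma-voom and 7.45 with a prior count of 0.5.

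The traces in the Ly6Chi-derived libraries were above a floor of 3 counts in most but not all cases. A floor of 3 counts corresponds to 0.0921 to 0.130 CPM in these libraries, and for counting error only. The 0 reads of Tmem176a in Ly6Chi-derived replicate 1 allow up to 0.109 CPM if every read is taken as independent. Both mates of a read pair were counted, so this limit is too low. The 4 reads of Tmem176a in Ly6Chi-derived replicate 2 cannot be set clearly above such a floor. Relative to the TpMo-derived mean, the Ly6Chi-derived replicates held 0%, 0.687% and 2.19% for Tmem176a and 0.703%, 1.06% and 2.33% for Tmem176b, so replicate 3 was the highest and replicate 1 the lowest for both genes. In cultures measured in bulk, a few cells with much of a transcript and many cells with little of it cannot be told apart, and neither can fewer cells of a type and less RNA per cell.

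To compare the genes with each other, levels were expressed per kilobase of exon. Reads that fall on exons of several genes were not counted, and the pair shares 81 exon bases, at 48840919 to 48840980 and at 48840996 to 48841014. That leaves 3729 countable bases for Tmem176a and 2290 for Tmem176b, and no other gene overlaps them. Per countable kilobase, the level in TpMo-derived macrophages was 5.72 ± 2.53 CPM for Tmem176a and 18.0 ± 6.41 CPM for Tmem176b (SD, n = 3). Tmem176a was thus above 58.5% of the genes tested and Tmem176b above 81.9%. The other genes were scaled by their full exon length, bases shared between genes included, so these ranks are approximate. Per kilobase of the best supported transcript, 1540 bases for Tmem176a and 1414 for Tmem176b, the levels were 13.8 ± 6.12 and 29.2 ± 10.4 CPM. Tmem176b was the higher gene on both scales. The reads of the 3 libraries summed were 3.06-fold higher per countable length, and the mean CPM was 2.11-fold higher per transcript length. In Ly6Chi-derived macrophages the mean CPM of 0.822% of the tested genes was below that of Tmem176a, and of 7.31% below that of Tmem176b. These low ranks follow from the choice of the pair and from the filter, which both genes passed through the TpMo-derived libraries alone. The 33984 genes of the count table with no read in any library are not in these percentages.

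The 3 TpMo-derived libraries differed from one another more in these genes than in most others. The coefficient of variation was 44.2% for Tmem176a and 35.6% for Tmem176b. Among the 2228 genes within 1.5-fold of the level of Tmem176a, 97.6% varied less, with a median of 16.3%, and among the 2338 genes near Tmem176b, 98.4% varied less, with a median of 12.5%. TpMo-derived replicate 2 was the lowest library for both genes. Replicates 1 and 3 were nearly equal for Tmem176a, whereas replicate 3 stood above replicate 1 for Tmem176b.

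The balance between the members therefore also differed between libraries. Of the reads counted for either gene, Tmem176a took 41.6% in TpMo-derived replicate 1 (95% exact Clopper-Pearson interval 39.5 to 43.8). It took 26.6% in replicate 2 (23.9 to 29.3) and 31.7% in replicate 3 (29.7 to 33.9). The interval of replicate 1 did not overlap those of TpMo-derived replicates 2 and 3. It still did not when all counts were halved because both mates of a read pair had been counted (38.6 to 44.7, against 22.8 to 30.5 and 28.8 to 34.8). The intervals cover counting error only. In the Ly6Chi-derived libraries the share was 0% of 8 reads (interval up to 36.9%), 25.0% of 16 reads (7.27 to 52.4) and 32.6% of 46 reads (19.5 to 48.0). Averaged over the libraries of a group (SD, n = 3), the share was 33.3% ± 7.66 for TpMo-derived macrophages. For the Ly6Chi-derived ones it was 19.2% ± 17.1, but this mean weighs 0% of 8 reads like 32.6% of 46. With the reads of each group summed, the gap was smaller. Tmem176a then took 34.7% of 5096 TpMo-derived reads (33.4 to 36.1). Its share of the 70 Ly6Chi-derived reads was 27.1% (17.2 to 39.1), and these intervals overlapped. An exact two-sided permutation test of the library shares gave p = 0.3, where 0.1 is the smallest p this design allows. The test could not pass 0.05 here, whatever the shares, so it does not decide whether the groups differ.

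**Figure D2:**
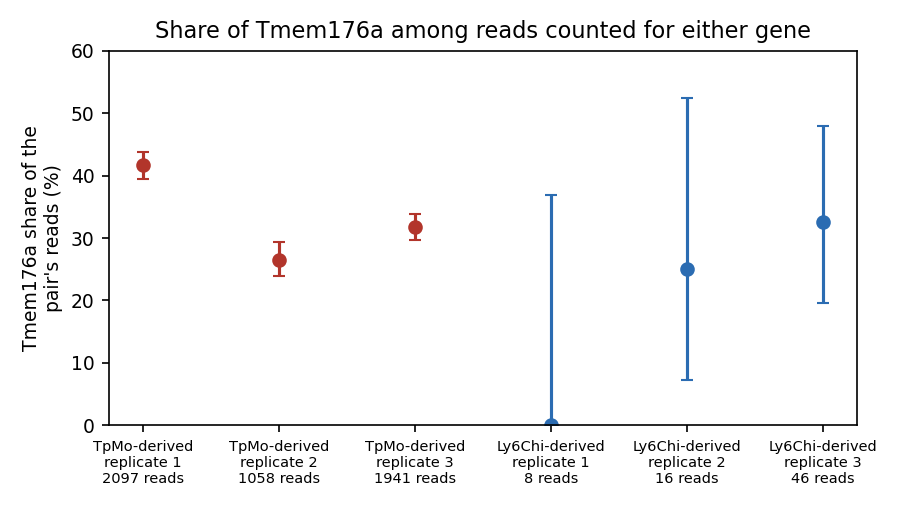
Share of Tmem176a, in percent, among the reads counted for either gene in each library, with 95% exact binomial intervals and the number of reads under each name. The TpMo-derived shares run from 26.6% to 41.6% with narrow intervals, and the Ly6Chi-derived intervals, from 8 to 46 reads, are wide.

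The cultures carried macrophage transcripts throughout, and most transcripts that define lymphocytes were at 0. All 10 macrophage markers, among them Adgre1, Csf1r and Lyz2, were detected in both groups, with summed levels of 36740 to 39110 CPM in TpMo-derived and 29850 to 32950 CPM in Ly6Chi-derived libraries. Of 12 markers of T cells and group 3 innate lymphoid cells, 10 were at 0 in all 6 libraries, including Il23r, Il17a and the CD3 genes. The sum of the list, nearly all of it Il7r, was 157 to 203 CPM in TpMo-derived and 296 to 366 CPM in Ly6Chi-derived libraries. Of 10 dendritic cell markers, Flt3, Clec9a, Cd209a, Ccr7 and Siglech were at 0 in every library, and the summed level of the other 5 was 2.46 to 8.99 CPM in TpMo-derived and 2.60 to 5.08 CPM in Ly6Chi-derived libraries, with overlap.

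Of 7 further marker lists, the 4 endothelial genes were the only ones whose sum did not overlap between the groups. It was 29.2 to 33.6 CPM in TpMo-derived and 7.50 to 24.2 CPM in Ly6Chi-derived libraries, nearly all of it Kdr, with Tek at 0 in all of them. Kdr itself did not pass (adjusted p = 0.0878 by the edgeR test described below) and Cdh5 was too low to test. Pecam1 was called higher from few reads, 38, 21 and 16 in the TpMo-derived and 0, 0 and 2 in the Ly6Chi-derived replicates (log2 fold change 5.06, adjusted p = 0.0356). The sums of the macrophage and lymphocyte lists did not overlap between the groups either. The part of these 3 lists in the difference of the pair was not tested. Sums of the 6 B cell markers were 7.28 to 14.1 and 1.71 to 7.87 CPM, with Cd79a and Pax5 at 0, and those of the 9 neutrophil markers were 1.11 to 2.75 and 0.218 to 1.49 CPM, with Ly6g, Retnlg and Mpo at 0. All 6 fibroblast markers were at 0. Markers of natural killer cells (1 of 4 detected), of mast cells, basophils and eosinophils (1 of 7) and of erythroid cells (2 of 5) reached a sum of at most 1.35 CPM in any library.

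Genes around the pair were called about as often as genes overall. Over all 13140 genes tested, 12.3% changed (1620 genes, 6.54% higher and 5.79% lower in TpMo-derived macrophages; edgeR, quasi-likelihood test, adjusted p below 0.05 by the Benjamini-Hochberg method). That number dropped to 1074 when TpMo-derived replicate 3 was left out, and to 1058, 976 and 1062 when Ly6Chi-derived replicate 1, 2 or 3 was. Within 500 kb of the pair lie 58 other genes, of which 39 had no read in any library, 4 had too few and 15 were tested. Of these 15, 1 was higher, 1 was lower and 13 did not pass the test, with a median log2 fold change of −0.15. The count of 2 is close to the share over all genes, and was 1 when TpMo-derived replicate 3 or Ly6Chi-derived replicate 2 was left out. The groups did not overlap for 3 of the 15, whereas 30.5% of all genes tested did not overlap.

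The closest gene that could be tested, 126 kb away, was Gimap6, one of the GTPases of immunity-associated proteins that cluster beside the pair. It had 48 reads in TpMo-derived and 78 in Ly6Chi-derived libraries in all (log2 fold change −0.61, not called). The other Gimap genes of the cluster had no read except Gimap9, with 6. Tra2a, a regulator of splicing, was higher in TpMo-derived macrophages, with means of 59.9 ± 4.52 and 40.0 ± 3.63 CPM (log2 fold change 0.58 ± 0.13 (SE), adjusted p = 0.015). Its call was lost without TpMo-derived replicate 3 and without Ly6Chi-derived replicate 1 or 2, and its adjusted p ran from 0.000146 to 0.0732 over 12 alternatives.

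Gpnmb, an abundant glycoprotein of macrophage lysosomes, was lower, at 12360 ± 405 against 15930 ± 223 CPM (log2 fold change −0.37 ± 0.04, adjusted p = 0.000239). Gm7890, at 2.83 ± 0.432 against 0.737 ± 0.324 CPM, did not pass (adjusted p = 0.0742, from 0.0115 to 0.198 over 11 alternatives, called by DESeq2 alone). Zfp467, a zinc finger gene, did not pass either (adjusted p = 0.192, from 0.0491 to 0.449, called only without Ly6Chi-derived replicate 1). The others tested were Krba1, Zfp862-ps, Lrrc61, Repin1, Zfp775, Gm19253, Malsu1, Igf2bp3, Gm43980 and Ccdc126, and no alternative called any of them. Gm7890 lies within Malsu1 and Gm43980 within Tra2a, on opposite strands. Strand was ignored in counting, and whether their exons overlap was not examined here.

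**Figure D3:**
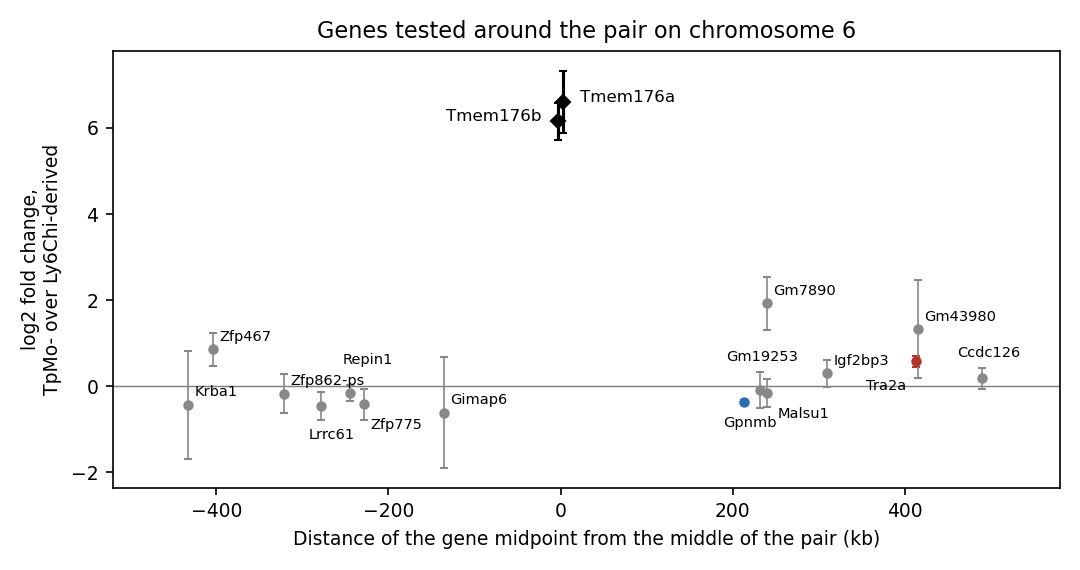
Log2 fold change with its SE for the 15 genes tested within 500 kb of the pair and for the pair itself, against the distance of each gene's midpoint in kb. Red is higher, blue is lower and grey did not pass the test. The pair, drawn as black diamonds and given no call, lies at 6.15 and 6.61, and its tested neighbours lie between −0.61 and 1.93. Each SE was derived from the F statistic of the edgeR test, so the bars of the pair are no support for its difference.

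Few genes had a pattern like that of the pair. With a TpMo-derived mean of at least 5 CPM and a Ly6Chi-derived mean of at most 5% of it, 16 of 13140 genes (0.122%) qualified, the pair among them, and 0 genes did so in the other direction. By level they were led by Ifit3, an interferon-induced antiviral gene, at 229 CPM in TpMo-derived macrophages, Slc13a3, a dicarboxylate transporter, at 93.5 CPM, and the gelatinase Mmp9 at 43.7 CPM. Tmem176b came next, followed by the interferon-induced genes Ifit3b, Ifi44 and Ifi213 at 35.4, 35.3 and 26.9 CPM. Tmem176a, Cd55, which protects cells from complement, at 21.2 CPM, and Gm4951, a gene of the interferon-inducible GTPase kind, at 16.0 CPM completed the first 10. The other 6 were H2-Aa, Cp, Ifi208, Iigp1, Cd4 and Smpd3. Just inside the limit H2-Aa stood at 4.80% and just outside it Cd74 stood at 5.02%. Reads of close copies such as Ifit3 and Ifit3b can be lost when they map to several places, so the levels of these families are uncertain.

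**Figure D4:**
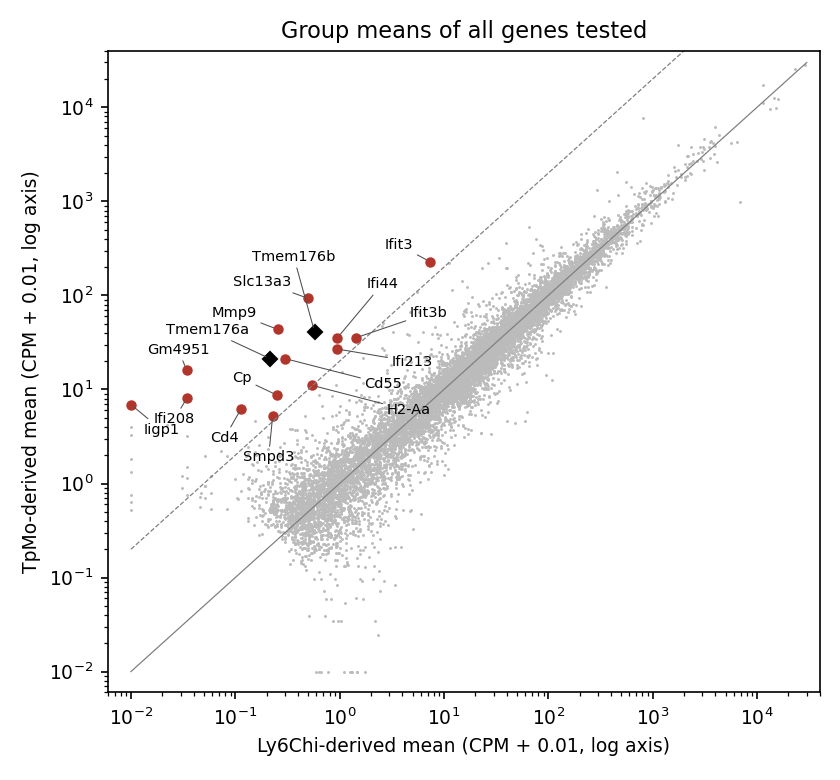
Mean level of every gene tested in TpMo-derived against Ly6Chi-derived macrophages, both as CPM + 0.01 on log axes, with equality as a solid line and 5% of the TpMo-derived mean as a dashed line. The 16 genes named lie above the dashed line with at least 5 CPM, and the black diamonds are Tmem176a and Tmem176b.

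The pair shared its low library with most of these genes and its high Ly6Chi-derived library with few. TpMo-derived replicate 2 was the lowest of its group for 13 of the 16 genes, both members of the pair included. Replicate 3 was the highest for 12, Tmem176b included. How often the same held over all genes tested was not counted, so these counts do not show that the order is particular to the 16. Over the 16 genes the median level was 101%, 62.8% and 129% of the group mean in TpMo-derived replicates 1, 2 and 3, and the median coefficient of variation was 39.1%. In the Ly6Chi-derived group, replicate 3 was the highest library for Tmem176a, Tmem176b, Ifi44 and Cd4, replicate 2 for 6 genes and replicate 1 for 5, and Iigp1 had no read in any.

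By Euclidean distance between centred log2 CPM over the 6 libraries, the genes closest to the mean of the pair were Cd4, Cd55, Sox7, Lox, Iigp1, Cp, Ifi44, Ifit3b, Ifi208 and Ifit1bl1, at 1.6 to 2.43. The distance between the members themselves was 1.40 and the median over all genes tested was 8.03. The difference between the groups weighs heavily in this distance, and both members were picked for it. Their closeness to each other, and their distance from most genes, therefore follow largely from that choice. With a smaller prior count of 0.5 in place of 2, 5 of these 10 were again among the closest. Cd4, the co-receptor of helper T cells that some macrophages also carry, had 9.58, 2.82 and 6.25 CPM in the TpMo-derived replicates. All its 10 Ly6Chi-derived reads were in replicate 3, the library in which the pair was highest as well. Cd55 had 21.1, 12.9 and 29.8 CPM in the TpMo-derived replicates and 0, 0.659 and 0.218 CPM in the Ly6Chi-derived ones. Sox7, a transcription factor, Lox, a collagen cross-linking enzyme, and Iigp1, an interferon-inducible GTPase, had no Ly6Chi-derived read. Against the floor of 3 counts per library they were 30.0-fold, 35.8-fold and 62.7-fold higher in TpMo-derived macrophages. These folds are not lower bounds, because both mates of a read pair were counted and the floor treats every read as independent.

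The relatives of the pair, the CD20-like Ms4a genes on chromosome 19, rose in part. Of 18 genes, 7 had no read and 3 had too few, and of the 8 tested 6 were higher in TpMo-derived macrophages, 0 were lower and 2 did not pass, against 6.54% higher over all genes. The median log2 fold change was 1.08. Ms4a4a, a surface protein of macrophages, had 64.1, 52.6 and 83.9 CPM in the TpMo-derived and 4.94, 4.06 and 5.01 CPM in the Ly6Chi-derived replicates (log2 fold change 3.84 ± 0.21, adjusted p = 7.24e-06). It thus stayed at several CPM where the pair was close to 0. Ms4a4c had 21.4 ± 6.50 against 1.66 ± 0.268 CPM (3.68 ± 0.31, adjusted p = 5.59e-05).

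The other members that rose had smaller folds. Ms4a7, a gene of mature macrophages, had 505 ± 90.7 against 240 ± 45.3 CPM (log2 fold change 1.07, adjusted p = 0.00143). Ms4a14 and Ms4a6c rose by 1.32 and 1.08 on the log2 scale (adjusted p = 0.000307 and 0.0029). Ms4a6b rose by 0.63 (adjusted p = 0.0274), a call lost without TpMo-derived replicate 3 and without Ly6Chi-derived replicate 1 or 2 (0.00188 to 0.12 over 12 alternatives). Ms4a6d, at 455 ± 72.5 against 393 ± 21.7 CPM, did not pass (adjusted p = 0.261, from 0.0486 to 0.676, called only without TpMo-derived replicate 2). The other gene that did not pass, Ms4a4b, was the only tested member with a negative log2 fold change, −1.84 ± 1.18, at 0.424 ± 0.612 against 1.5 ± 0.829 CPM (adjusted p = 0.404). Several of these genes are close copies, so reads that map to more than 1 of them were lost.

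The inflammasome genes, the machinery on which Tmem176b is reported to act, were for the most part not called. Of 20 genes 18 were tested, of which 1 was higher and 0 were lower, against 6.54% and 5.79% over all genes, with a median log2 fold change of 0.01 here and 0.01 over all genes. Nlrp3, the sensor, had 16.6, 12.8 and 15.4 CPM in TpMo-derived and 11.2, 6.92 and 12.7 CPM in Ly6Chi-derived libraries (log2 fold change 0.54 ± 0.27, adjusted p = 0.256). Pycard, the adaptor ASC, had 40.9 ± 6.26 against 46.5 ± 5.55 CPM (adjusted p = 0.548), and Casp1, the protease, 105 ± 8.19 against 112 ± 27.8 CPM (adjusted p = 0.767). None of these 3 was called under any alternative.

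The member that rose was Ninj1, which ruptures the plasma membrane late in lytic cell death, at 394 ± 14.7 against 321 ± 22.6 CPM (log2 fold change 0.30, adjusted p = 0.0221). It was lost without TpMo-derived replicate 1 or 3 and without Ly6Chi-derived replicate 1 or 2 (0.00208 to 0.0997 over 12 alternatives). Txnip, a thioredoxin-binding protein, had 214 ± 19.6 against 167 ± 20.5 CPM and just missed the threshold (adjusted p = 0.0546, from 0.0154 to 0.178, called in 5 of 12 alternatives, among them the fit without TpMo-derived replicate 1). The list count was 2 when TpMo-derived replicate 2 was left out, and 0 when TpMo-derived replicate 3 was, or Ly6Chi-derived replicate 1 or 2. Il1b, the cytokine that caspase-1 matures, had 39 reads in TpMo-derived replicate 3 and none elsewhere, and was too low to test.

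Other cation channels of macrophage membranes were called in both directions. Of 27 genes 25 were tested, with 3 higher, 3 lower and 19 not called, against 6.54% higher and 5.79% lower over all genes, and a median log2 fold change of 0.05. Kcnn4, a calcium-activated potassium channel, had 756 ± 38.3 against 554 ± 25.4 CPM (log2 fold change 0.45, adjusted p = 0.00131). P2rx4, an ATP-gated channel of lysosomes and the cell surface, had 491 ± 58.2 against 342 ± 17.1 CPM (0.52, adjusted p = 0.00404). Hvcn1, the proton channel that sustains the oxidative burst, was lower, at 26.2 ± 2.24 against 48.2 ± 4.78 CPM (−0.88, adjusted p = 0.00337).

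The remaining channel calls depended on single libraries. Tpcn1, an endolysosomal channel, fell by 1.04 on the log2 scale (adjusted p = 0.0135), a call lost without TpMo-derived replicate 3 and without Ly6Chi-derived replicate 1 (0.000157 to 0.0638 over 12 alternatives). Mcoln2, an endolysosomal cation channel, rose by 0.59 (adjusted p = 0.0305), and Trpv2 fell by 0.36 (adjusted p = 0.0285). Mcoln2 lost its call in 5 of the 6 fits that left out a library (all but that without TpMo-derived replicate 1; 0.00247 to 0.121 over 12 alternatives) and Trpv2 in all but the fit without TpMo-derived replicate 2 (0.00355 to 0.112). The list count of 6 was 3 without Ly6Chi-derived replicate 1.

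Genes of MHC class II presentation were called in both directions. Of 17 genes 15 were tested, with 4 higher, 3 lower and 8 not called, against 6.54% and 5.79% over all genes, and a median log2 fold change of −0.08. Cd74, the invariant chain, had 149, 55.7 and 125 CPM in TpMo-derived and 1.96, 8.20 and 6.40 CPM in Ly6Chi-derived libraries (log2 fold change 4.31 ± 0.49, adjusted p = 0.00036). As for the pair, TpMo-derived replicate 2 was the lowest of its group. The class II chains H2-Aa and H2-Ab1 rose by 4.37 and 3.61 (adjusted p = 0.00799 and 0.00504). The chain H2-Eb1 did not pass, at 6.74 ± 3.22 against 1.01 ± 1.31 CPM (log2 fold change 2.75 ± 1.03, adjusted p = 0.127). H2-Aa lost its call when no filter on counts was used (0.0021 to 0.0637 over 12 alternatives), and H2-Ab1 then and with limma-voom (0.000471 to 0.134).

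Lgmn, a lysosomal protease, rose, with 1412 ± 117 CPM in the TpMo-derived group and 615 ± 44.0 CPM in the other (log2 fold change 1.20, adjusted p = 1.3e-05). Ctss, the protease that trims the invariant chain, Ifi30, a lysosomal thiol reductase, and March1, which marks class II molecules for degradation, fell by 0.27, 1.08 and 1.14 on the log2 scale (adjusted p = 0.00856, 0.000327 and 0.00112). Ciita, the master activator of class II genes, had 4 reads, all in Ly6Chi-derived replicate 3.

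Genes of dendritic cell maturation, the process during which the pair is known to be switched off, were called in both directions as well. Of 24 genes 16 were tested, with 3 higher, 2 lower and 11 not called, against 6.54% higher and 5.79% lower over all genes, and a median log2 fold change of 0.25. Ebi3, a cytokine subunit, had 43.3 ± 3.15 against 24.4 ± 2.76 CPM (log2 fold change 0.83, adjusted p = 0.0056). The NF-κB subunits Relb and Nfkb2 rose by 1.33 and 0.70 (adjusted p = 0.0105 and 0.0125), and the costimulatory ligand Cd80 and the inhibitory ligand Cd200 fell by 1.27 and 1.27 (adjusted p = 0.0121 and 0.0135). Relb was lost without Ly6Chi-derived replicate 1 or 2 (up to 0.0597, from 4.91e-05), and Nfkb2 when TpMo-derived replicate 1 was left out, or Ly6Chi-derived replicate 1 or 3 (up to 0.056, from 0.000165). Cd80 was lost without TpMo-derived replicate 3 (up to 0.0528, from 0.000119), and Cd200 when TpMo-derived replicate 3 was left out, or Ly6Chi-derived replicate 1 or 2 (up to 0.0607, from 0.000181). The count of 5 was 3 without TpMo-derived replicate 3, 2 without Ly6Chi-derived replicate 1 and 3 without Ly6Chi-derived replicate 2. Ccr7, Ccl17 and Pdcd1lg2 had no read in any library, and Cd274 did not pass (log2 fold change −0.25, adjusted p = 0.407).

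**Figure D5:**
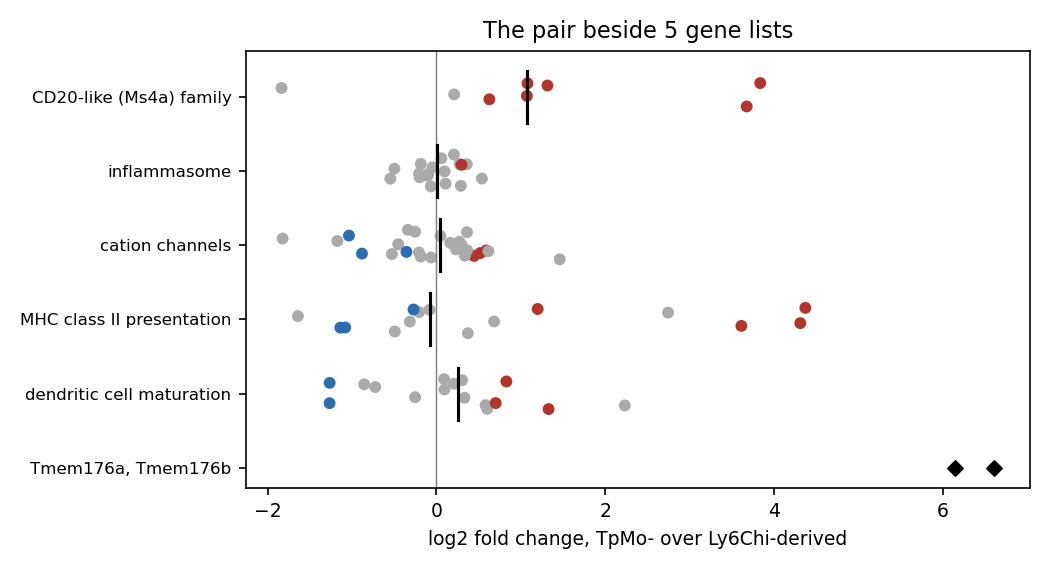
Log2 fold change of each tested gene of the 5 lists, with the list median as a black bar, beside the pair as black diamonds. Red is higher, blue is lower and grey did not pass the test; medians run from −0.08 for MHC class II presentation to 1.08 for the CD20-like family, and the pair lies at 6.15 and 6.61.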

How the data were processed

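RNA was measured in 6 libraries, 3 per group. The deposited values are raw counts of reads for each gene, which per the file headers featureCounts 1.6.3 made over GENCODE M22 exons with no options set, so by its defaults both mates of a pair were counted, strand was ignored, and reads on several genes or places were dropped. STAR and GRCm38 are named per the submitters' processing notes. Because strand was ignored, a read on an exon of either member that came from the opposite strand would be counted for that member. Library totals ran from 23765773 to 33042094 counts.

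Symbols came from GENCODE M21 (55394 identifiers matched, 93 did not), promoter windows from RefSeq on GRCm38.p6. Genes passed filterByExpr (minimum count 10, minimum total 15), TMM scaled the libraries, and the quasi-likelihood test of edgeR 4.0.16 (robust, R 4.3.3) was adjusted by Benjamini-Hochberg over 13140 genes, with a threshold of 0.05. The ± after a log2 fold change is its SE, taken as the absolute log2 fold change divided by the square root of the F statistic of this test. It is approximate, most of all where a group has few reads. CPM are per TMM-adjusted total. Replicates were numbered in accession order, and the labels name no batch. The fit was tested on simulated counts with smaller changes than those of the pair. That simulation does not cover groups close to 0 reads, and its outcome is not given here.

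The members, gene lists and alternatives were chosen with earlier results of these data known. Named were the pair, Nlrp3, Casp1, Pycard, Il1b and Ciita whatever their values, and a further gene that is not reported here. The rule added every tested gene within 500 kb, the 10 nearest by distance, the 10 highest near on/off genes, and in each list the changed members with the smallest p, at most 6, and at most 2 with the highest mean. Other genes, such as Ms4a4b, H2-Eb1, list members with no read and the rest of the near on/off genes, were named after their values were seen. Alternatives were library sizes alone, DESeq2 size factors, DESeq2 1.42.0, limma-voom (limma 3.58.1), no count filter, at least 5 CPM in 3 libraries, and leaving out each library.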

Additional observations from a re-analysis of the deposited data

How the results depend on the processing

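Depth limits the Ly6Chi-derived side of the pair, where 19 and 51 reads carry the folds. Leaving out each library in turn gave a log2 fold change of 6.05 to 8.10 for Tmem176a and 5.84 to 6.80 for Tmem176b, a share of Tmem176a of 29.2% to 36.7%, and 15 to 20 near on/off genes. It gave 976 to 1492 changed genes in all, 1 to 2 within 500 kb, 5 to 7 of the CD20-like family, 0 to 2 of the inflammasome, 3 to 5 cation channels, 7 to 8 genes of MHC class II presentation and 2 to 5 of dendritic cell maturation. A window of 250 kb held 1 changed gene in place of 2. The inflammasome list held 2 changed genes in place of 1 with the DESeq2 Wald test, with limma-voom, with no count filter and with at least 5 CPM in 3 libraries. The share of Tmem176a was 23.6% per countable length and, by an alternative chosen after seeing the data, 31.5% per length of the best supported transcript. A limit of 2% in place of 5% left 9 near on/off genes, and a level of at least 1 CPM gave 30. The causes of these shifts were not tested. With library sizes alone 737 genes were higher and 902 lower, against 859 and 761. With the DESeq2 Wald test 1204 were higher and 1175 lower. That fit was run without the count filter and so started from 21503 genes in place of 13140, before its own filter. Among 61 named genes, 35 calls were lost over all alternatives (13 genes, 31 of them on leaving out a library) and 8 were gained (4 genes). No paired analysis was possible because the labels give no replicate numbers.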
